A study of Homo sapiens with 6 samples.

Results

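The kinesins are described here as every gene whose symbol starts with KIF followed by a digit, which gave 39 of the 23228 genes listed in the read count files. They were followed in 6 RNA-seq libraries of polyadenylated RNA from MDA-MB-231 cells, a long-established triple-negative line of human breast cancer. All cells had been given lentivirus and grown under puromycin for a week. In 3 libraries, called scramble, the virus carried a scrambled short hairpin RNA (shRNA), and in the other 3, called labelled knockdown, it carried shRNA against SCUBE3, a secreted and cell-surface protein. The labels name no clone, do not say how many shRNA sequences were used, and call the libraries of a group replicates without saying that they were separate cultures, so the spread behind each p-value may be technical.

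Kinesins are motor proteins that use ATP to work on microtubules. Most walk towards the plus end and pull a cargo, while some take tubulin off microtubule ends. Mitotic kinesins build the spindle, move chromosomes and split the cell after division, and their RNA typically peaks around division in cycling cells. Transport kinesins carry vesicles, mitochondria and ciliary cargo, and several are known mainly from neurons. The members were placed by textbook role into 14 mitotic kinesins, 15 transport kinesins and 10 with ciliary, signalling or less certain roles.

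Levels are given in CPM, the usual depth-scaled count of reads in genes, with edgeR's TMM scaling and scramble first, and a log2 fold change is that of labelled knockdown over scramble. Reads in genes numbered 21348509 to 25520901 per library. SCUBE3 RNA, the target, had 96, 91 and 80 reads in scramble and 99, 107 and 101 reads in the labelled knockdown libraries (log2 fold change 0.025 ± 0.14 SE, edgeR quasi-likelihood adjusted p = 0.871; without scramble replicate 3 the estimate was -0.050). The labels say that SCUBE3 protein was looked at by western blot, which was not analysed here. The RNA does not show the knockdown, and every direction below is that of the labels. Genes reported as high in MDA-MB-231 were read in both groups, with VIM at 4371 ± 109 against 2395 ± 77.6 CPM (SD, n = 3), AXL at 1282 ± 59.1 against 1139.6 ± 8.004 CPM (SD, n = 3), EGFR at 394 ± 7.13 against 220.4 ± 17.4 CPM (SD, n = 3), CD44 at 578 ± 2.26 against 1046 ± 14.2 CPM (SD, n = 3) and CAV1 at 360.4 ± 5.03 against 773 ± 4.76 CPM (SD, n = 3). Of those reported as low or lost, CDKN2A had 1 read in all 6 libraries together and CDKN2B and MTAP had 0. ESR1 had 3, 1 and 4 scramble reads and 0 under labelled knockdown, and PGR had 25, 18 and 23 reads and 0. GATA3 stood at 5.91 ± 0.134 against 15.5 ± 0.311 CPM (SD, n = 3), ERBB3 at 12.2 ± 0.9498 against 5.86 ± 0.673 CPM (SD, n = 3), ERBB2 at 53.5 ± 2.28 against 92.3 ± 2.16 CPM (SD, n = 3) and CDH1 at 0.0458 ± 0.0478 against 2.01 ± 0.332 CPM (SD, n = 3).

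Of the 39 kinesin genes, 31 had enough reads to be tested, and most of these were lower in the labelled knockdown libraries. By edgeR's quasi-likelihood test with Benjamini-Hochberg adjustment over all 13606 genes tested (threshold 0.05), 21 kinesins were lower, 8 were higher, and KIF1C and KIF4A did not pass. The background of calls was wide: 85.9% of all genes tested passed, 43.4% higher and 42.5% lower, so passing the test does not set a kinesin apart. Nor does a lack of overlap between the groups, which held for 85.8% of all genes tested. The groups were apart for 29 of the 31 tested kinesins, also for KIF1C, which did not pass. The 31 tested kinesins had a median log2 fold change of -0.47, against 0.01 for all genes tested, and a median size of change of 0.66 against 0.64. KIF6 and KIF26B were kept by the filter through reads in 1 group, so these counts and medians describe the tested members and not the whole family. The other 29 had at least 10 reads in every library, and of these 20 were lower and 7 higher.

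**Figure D1:**
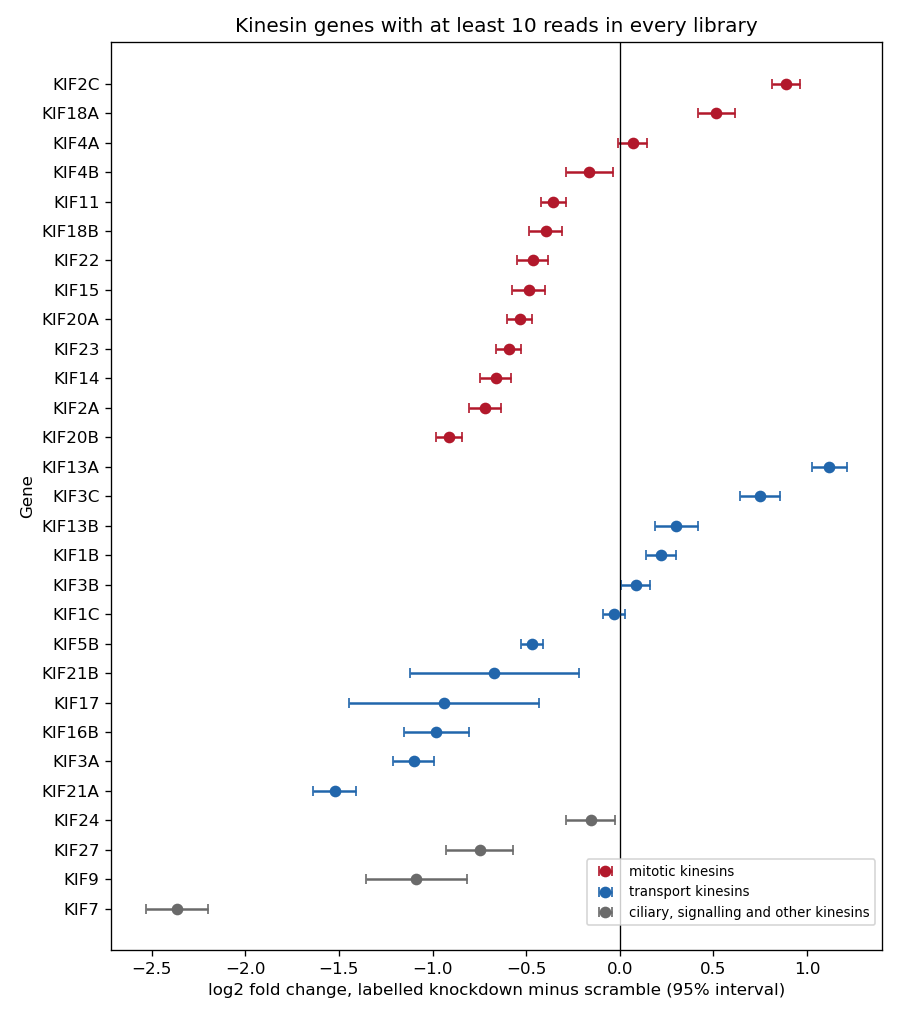
Log2 fold change of the 29 kinesin genes with at least 10 reads in every library, labelled knockdown minus scramble, with 95% intervals from the edgeR fit; colours give the role. Mitotic kinesins lie between -0.91 (KIF20B) and 0.89 (KIF2C), transport kinesins between -1.52 (KIF21A) and 1.12 (KIF13A), and KIF7 is lowest at -2.36.

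Mitotic kinesins were mostly lower, and those that were had log2 fold changes from -0.91 to -0.16. Of 14 members, 13 were tested, all with at least 10 reads in every library. The call was lower for 10 of them and higher for 2, KIF2C and KIF18A, against 42.5% lower and 43.4% higher among all genes. Their median log2 fold change was -0.47. The summed level of the 14 genes ran from 1915 to 1924 CPM in scramble and 1500.4 to 1524 CPM in the other group. Proliferation markers were lower in 9 of 15 cases and higher in 4 (median -0.17). MKI67 (-0.85 ± 0.03) and PCNA (-0.64 ± 0.03) were lower and CCNA2 (1.08 ± 0.04) and CCNB1 (0.73 ± 0.03) higher. The summed level of the proliferation markers ran from 5422 to 5497 CPM in scramble and 4489 to 4568 CPM in the other group, and its part in the mitotic kinesin values was not tested. In bulk RNA, fewer cells in division and less RNA per cell cannot be told apart.

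Motors that set up the spindle were lower, though KIF11 did not pass after a correction for GC content and length (log2 fold change -0.05, adjusted p = 0.0693). KIF11, which slides antiparallel microtubules apart to separate the spindle poles, had 257, 259.6 and 252 CPM in the scramble libraries and 207, 196 and 198 CPM in those labelled knockdown. The groups did not overlap, and the level fell by 21.8% (log2 fold change -0.36 ± 0.03 (SE), adjusted p = 7.94e-13). KIF15, which backs up KIF11 once the spindle is bipolar, had 85.99, 90.7 and 84.4 CPM against 63.9, 61.3 and 60.9, also without overlap (log2 fold change -0.49 ± 0.04 (SE), adjusted p = 6.35e-13). TPX2, the spindle assembly factor that binds both motors, was lower as well, at 761 ± 13.1 against 496 ± 2.66 CPM (SD, n = 3) (log2 fold change -0.62 ± 0.03).

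The kinesins that end division were lower, each with a larger fitted fall than KIF11, though the difference between genes was not tested. KIF23, the motor subunit of the centralspindlin complex at the spindle midzone, had 272, 257 and 273 CPM against 178, 174 and 179.5 (log2 fold change -0.59 ± 0.03 (SE), adjusted p = 2.4e-19). Its partner RACGAP1 had a log2 fold change of -0.65 ± 0.03, close to that of KIF23. KIF20A, which brings the chromosomal passenger complex to the midzone, had 250.3, 252 and 240.1 CPM against 170.5, 169 and 173 (log2 fold change -0.53 ± 0.03 (SE), adjusted p = 5.35e-18). All 3 labelled knockdown libraries lay below all 3 scramble libraries for both genes.

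KIF20B, a midzone and abscission motor, had the largest fall of the mitotic class as fitted, though not after the GC and length correction, where KIF18B did (-0.40 against -1.05). It had 242, 248 and 258 CPM against 136, 132 and 129.9, and fell by 46.9% (log2 fold change -0.91 ± 0.03 (SE), adjusted p = 7.4e-25). KIF14, a midbody motor that recruits citron kinase, had 152, 146 and 159 CPM against 98.4, 90.7 and 99.7 (log2 fold change -0.66 ± 0.04 (SE), adjusted p = 4.27e-18). The citron kinase gene CIT changed less, with a log2 fold change of -0.21 ± 0.04. The plot of mitotic kinesins by library shows the groups apart for each of these genes.

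**Figure D2:**
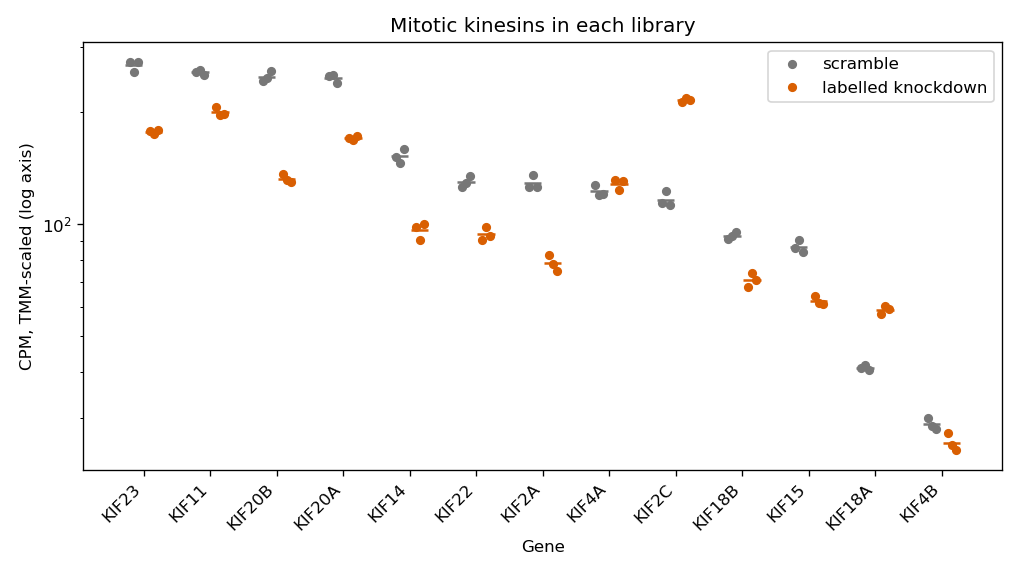
Level of the 13 tested mitotic kinesins in each library, in TMM-scaled CPM on a log axis; points are libraries and short lines group means, ordered by the scramble mean. KIF2C and KIF18A lie higher in the labelled knockdown libraries, KIF4A overlaps, and the other 10 lie lower.

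The mitotic kinesins that shorten microtubules split in direction. KIF2C, also known as MCAK, takes tubulin off microtubule ends at centromeres and corrects faulty attachments, and it had 114, 123 and 113 CPM in the scramble libraries and 212, 219 and 215 CPM in those labelled knockdown. That is a rise of 85.1% with no overlap (log2 fold change 0.89 ± 0.04 (SE), adjusted p = 9.05e-24). Its relative KIF2A, which works at spindle poles and also outside mitosis, went the other way, with 126, 136 and 126 CPM against 82.8, 78.2 and 74.6 (log2 fold change -0.72 ± 0.04 (SE), adjusted p = 1.31e-18). Per kilobase of transcript, the ratio of KIF2C to KIF2A was 0.796, 0.798 and 0.7901 in scramble and 2.26, 2.47 and 2.54 in the labelled knockdown libraries, so the order of the pair was opposite in the groups. KIF2B, another relative, was at 0 reads throughout. By counting error alone, 3 reads over a group would be 0.0448 CPM for scramble and 0.0397 CPM for labelled knockdown, the upper limits for such a gene.

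KIF18A, which dampens chromosome movements at the metaphase plate, was higher, at 40.9, 41.7 and 40.4 CPM against 57.1, 60.01 and 58.9 (log2 fold change 0.52 ± 0.05 (SE), adjusted p = 3.34e-12). KIF18B, which trims astral microtubules, was lower, at 91.3, 93.04 and 95.02 CPM against 67.8, 73.7 and 70.8 (log2 fold change -0.40 ± 0.04 (SE), adjusted p = 7.33e-11). Neither gene's groups overlapped. Within the mitotic class, the KIF2 pair and the KIF18 pair thus moved in opposite directions, while KIF20A (-0.53) and KIF20B (-0.91) were both lower.

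Chromosome-bound kinesins changed little or fell. KIF22, which pushes chromosome arms away from the poles, had 126, 129 and 135 CPM against 90.9, 97.9 and 93.03 (log2 fold change -0.47 ± 0.04 (SE), adjusted p = 9.78e-14). KIF4A, which compacts chromosomes and sizes the midzone with PRC1, had 127, 119.6 and 120.5 CPM against 132, 124 and 130.2, with overlapping groups (log2 fold change 0.07 ± 0.04 (SE), adjusted p = 0.087; 95% interval -0.01 to 0.15). It did not pass, but passed as higher when library totals alone set the scale (log2 fold change 0.12, adjusted p = 0.00383), and without scramble replicate 1 (0.0354) or labelled knockdown replicate 2 (0.0253). PRC1 itself was lower (log2 fold change -0.49 ± 0.03).

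KIF4B is an intronless copy of KIF4A and is reported as uncertain. It had 29.98, 28.6 and 28.1 CPM against 27.4, 25.5 and 24.6 (log2 fold change -0.16 ± 0.06 (SE), adjusted p = 0.0159), and its call was lost without scramble replicate 1 (adjusted p = 0.0570), without labelled knockdown replicate 2 (0.0514) or 3 (0.104), and with library totals (0.0946). Of all 50-base stretches of the KIF4A transcript, as long as the reads, 61.5% lie within 2 mismatches of KIF4B, and 14.4% are identical to it or another gene. The number of KIF4A reads per KIF4B read was 4.24, 4.18 and 4.29 in scramble and 4.81, 4.85 and 5.29 in the labelled knockdown libraries. Which reads of the pair belong to which gene was not resolved here.

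Base composition moved with part of these results. Many mitotic kinesin transcripts are poor in GC (median 44.7% against 48.8% over 11967 genes tested). With a correction for transcript length and GC content, the mitotic median became -0.29, that of all genes -0.08, and the calls 8 lower and 3 higher of 13. Over the 11967 genes the corrected calls were 5621 lower and 4723 higher. Of the calls over all genes, 45.7% were then higher, against 50.5% as fitted, so the background moved towards lower too. Besides KIF11, KIF4B no longer passed (-0.08, adjusted p = 0.218), KIF14 shrank to -0.25, KIF15 to -0.29 and KIF20B to -0.40. The GC-rich transcripts of KIF18B and KIF22 moved further down, to -1.05 and -0.97. KIF2C and KIF18A stayed higher (0.76 and 0.82), and KIF4A passed as higher (0.14).

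**Figure D3:**
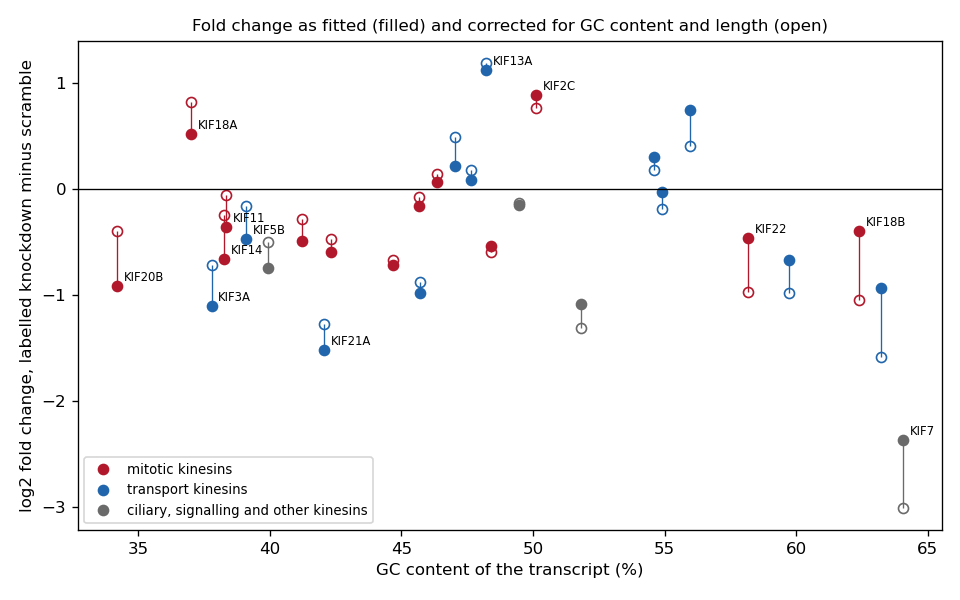
Log2 fold change of the 29 kinesin genes against the GC content of 1 GENCODE transcript per gene; filled points are as fitted and open points corrected for GC content and transcript length. Genes poor in GC such as KIF20B (-0.91 to -0.40) move up and GC-rich genes such as KIF18B (-0.40 to -1.05) and KIF7 (-2.36 to -3.01) move down.

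Promoters are shown because most mitotic kinesins share letters in them that the transport kinesins mostly lack, whichever way their RNA differed. The CHR (cell cycle genes homology region) is a short element bound by the DREAM and MuvB complexes in genes that peak at division, and CCAAT boxes bind NF-Y. RefSeq windows on GRCh38.p14, from 250 bases before to 50 after each start, held TTTGAA on either strand for 9 of 14 mitotic kinesins and 1 of 12 transport kinesins (KIF5B). Over all 27305 genes with a window the share was 18.2%. CCAAT on either strand was found for 10 of 14 mitotic and 4 of 12 transport kinesins, against 39.7% of all genes. A further variant, TTTAAA, stood in 4 mitotic kinesins (KIF2C, KIF14, KIF20A and KIF23), against 14.5% of all genes, and none of the 3 motifs overlaps another in the stretches below. The windows lacked KIF13B, KIF21B, KIF5A, KIF19, KIF26B and KIF27. The 120 bases before the start, in the direction of the gene, are given for 3 mitotic kinesins that were lower (KIF11, KIF20A, KIF23), 1 that was higher (KIF18A) and 1 that did not pass (KIF4A), with matches on either strand in capitals:
KIF11, chr10:92593010-92593129, plus strand: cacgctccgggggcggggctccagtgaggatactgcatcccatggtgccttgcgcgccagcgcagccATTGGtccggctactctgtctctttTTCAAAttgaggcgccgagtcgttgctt
KIF20A, chr5:138178992-138179111, plus strand: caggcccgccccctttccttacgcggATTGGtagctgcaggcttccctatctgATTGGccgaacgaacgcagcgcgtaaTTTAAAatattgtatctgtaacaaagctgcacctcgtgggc
KIF23, chr15:69414229-69414348, plus strand: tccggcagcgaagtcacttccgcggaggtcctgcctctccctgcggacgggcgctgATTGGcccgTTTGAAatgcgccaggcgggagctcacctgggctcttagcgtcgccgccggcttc
KIF18A, chr11:28108157-28108276, minus strand: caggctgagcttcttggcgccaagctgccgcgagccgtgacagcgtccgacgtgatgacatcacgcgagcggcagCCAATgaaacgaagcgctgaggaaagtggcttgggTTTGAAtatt
KIF4A, chrX:70289984-70290103, plus strand: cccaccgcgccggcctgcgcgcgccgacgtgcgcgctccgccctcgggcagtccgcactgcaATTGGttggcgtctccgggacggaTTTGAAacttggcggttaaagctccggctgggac

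All genes shown are among the 9 of 14 mitotic kinesins with both CCAAT and TTTGAA or TTTAAA in the window, against 12.7% of all genes. That each stretch holds both thus follows from the choice of genes. KIF15 and KIF2C lacked CCAAT, KIF22 lacked TTTGAA and TTTAAA, and KIF2A and KIF2B lacked all of them. In each stretch a CCAAT match, or ATTGG on the other strand, lies upstream of a match to TTTGAA (read as TTCAAA from the other strand) or to TTTAAA. KIF11 carries both on the opposite strand, with the first base of TTCAAA 28 bases before the start. The TTTGAA of KIF18A begins 10 bases before the start, that of KIF4A 34 and that of KIF23 55 bases before it, and the TTTAAA of KIF20A 41. In KIF14, KIF18B, KIF4B and KIF20B the TTTGAA match lies at or after the start and is not printed. These matches describe letters only, and the same letters stood before genes that were lower, higher (KIF18A) and not called (KIF4A). KIF2C, the other mitotic kinesin that was higher, had TTTAAA alone, beginning 3 bases before the start.

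Transport kinesins split in direction. Of 15 members, 12 were tested, each with at least 10 reads in every library, and 6 were lower, 5 higher and KIF1C did not pass. Among all genes 42.5% were lower and 43.4% higher, so the split does not set transport kinesins apart. The median log2 fold change was -0.25, but 0.027 without KIF21A and KIF21B, which also act on microtubule growth. Their summed level ran from 1403 to 1445 CPM in scramble and 1249 to 1273 CPM in the other group.

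KIF5B, the ubiquitous conventional kinesin heavy chain that carries mitochondria, lysosomes and vesicles, was the most abundant kinesin and was lower. It had 638, 616 and 609.6 CPM in the scramble libraries and 457, 439 and 449.6 CPM in those labelled knockdown, and fell by 27.8% with no overlap (log2 fold change -0.47 ± 0.03 (SE), adjusted p = 4.93e-18). With the correction for GC content and length the fold change was -0.16. Its neuronal relatives were close to silent: KIF5A had 1 read in each group, and KIF5C had 11, 3 and 6 reads in scramble and 1, 1 and 0 in the labelled knockdown libraries, a ratio of 11.3 with an exact 95% counting interval of 2.74 to 99.7.

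Light chains, which tie the KIF5 heavy chains to cargo, split in direction. KLC1 was lower, as KIF5B was, with a log2 fold change of -0.22 ± 0.03, and KLC2 was higher (0.23 ± 0.04). KLC4 was higher too (13.95 ± 2.03 against 27.1 ± 0.675 CPM (SD, n = 3); log2 fold change 0.97 ± 0.08). KLC3, a light chain best known from testis, was read at trace level in scramble, with 0.0281 ± 0.0486 against 3.33 ± 0.186 CPM (SD, n = 3).

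In the KIF1 family, which carries synaptic vesicle precursors, mitochondria and other vesicles, changes were small. KIF1B had 92.5, 87.7 and 89.5 CPM against 104, 102 and 107 (log2 fold change 0.22 ± 0.04 (SE), adjusted p = 4.8e-06). KIF1C, a fast carrier of dense-core vesicles and integrins, had 329, 335 and 334 CPM against 321, 328 and 329, and its log2 fold change was -0.03 ± 0.03 (adjusted p = 0.336; 95% interval -0.09 to 0.03). That of KIF1C turned to 0.021 with library totals as the scale, and with the GC and length correction it passed as lower (-0.19). KIF1A, the neuronal member, had 0 reads in all 6 libraries. KIAA1279, which encodes a protein that binds KIF1 motors and restrains them, was higher, at 83.6 ± 5.53 against 117 ± 1.05 CPM (SD, n = 3) (log2 fold change 0.49 ± 0.04).

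The subunits of heterotrimeric kinesin, the motor of intraflagellar transport and of membrane cargo, came apart. KIF3A, the subunit common to both known pairings, had 57.2, 53.7 and 56.8 CPM in the scramble libraries and 26.7, 25.7 and 25.9 CPM in those labelled knockdown, and fell by 53.3% (log2 fold change -1.10 ± 0.05 (SE), adjusted p = 3.46e-21). KIF3B, its ubiquitous partner, had 114, 116 and 113 CPM against 124, 119.7 and 120.4 (log2 fold change 0.08 ± 0.04 (SE), adjusted p = 0.0347), a small difference whose call was lost when any of 4 libraries was left out (adjusted p = 0.0509 to 0.140). KIF3C, the partner known mainly from neurons, rose by 67.9%, with 32.8, 37.03 and 33.7 CPM against 58.7, 57.3 and 57.7 (log2 fold change 0.75 ± 0.05 (SE), adjusted p = 4.56e-16). KIFAP3, which links the motor pair to cargo, had a log2 fold change of -0.08 ± 0.06 (adjusted p = 0.233).

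Per kilobase of transcript, KIF3A was already below KIF3B in scramble, and further below it in the other group. The ratio of KIF3A to KIF3B was 0.483, 0.445 and 0.486 in scramble and 0.208, 0.207 and 0.208 in the labelled knockdown libraries. The ratio of KIF3A to KIF3C was 1.37 ± 0.131 in scramble and 0.381 ± 0.00362 in the labelled knockdown libraries (SD, n = 3), so that KIF3A stood above KIF3C in scramble and below it in the labelled knockdown libraries. With the correction for GC content and length, KIF3A stayed lower (-0.72) and KIF3C higher (0.41), and KIF3B stood at 0.18. The same correction gave 0.49 for KIF1B, and for the members described next 0.18 for KIF13B and -1.58 for KIF17.

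Endosomal kinesins moved in opposite directions. KIF13A, which moves recycling endosomes to the cell periphery, had the largest rise of the transport class, with 48.2, 47.4 and 44.1 CPM against 101, 98.2 and 105 (log2 fold change 1.12 ± 0.05 (SE), adjusted p = 1.02e-23). KIF13B, its relative, had 35.4, 34.4 and 31.2 CPM against 41.8, 41.8 and 40.99 (log2 fold change 0.30 ± 0.06 (SE), adjusted p = 6.17e-06). KIF16B, which moves early endosomes towards microtubule plus ends, was lower, at 24.97, 23.6 and 22.9 CPM against 13.5, 12.97 and 9.79 (log2 fold change -0.98 ± 0.09 (SE), adjusted p = 6.36e-13). Labelled knockdown replicate 3 was the lowest of its group for KIF16B, and no group overlapped for any of the 3 genes.

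**Figure D4:**
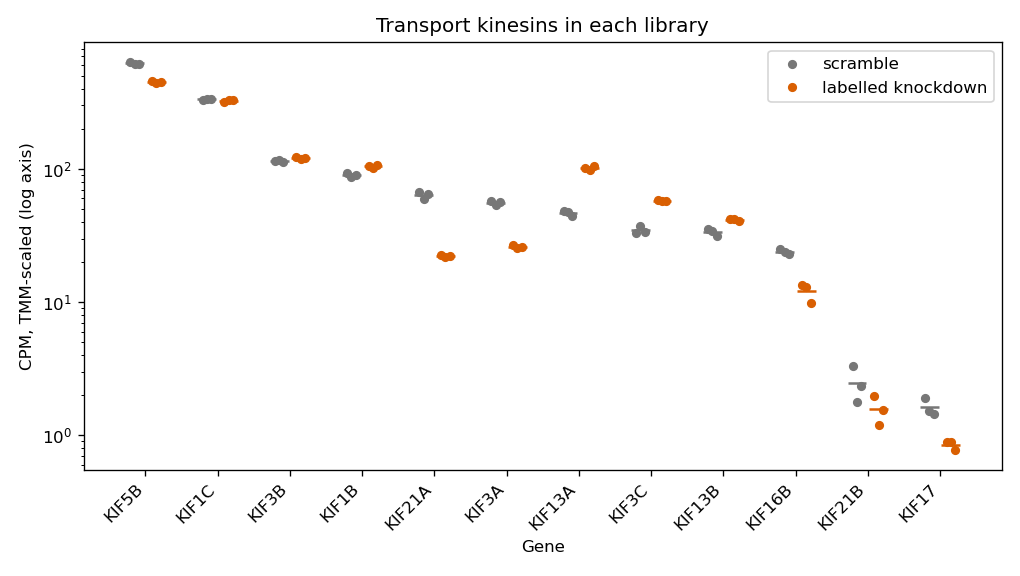
Level of the 12 tested transport kinesins in each library, in TMM-scaled CPM on a log axis; points are libraries and short lines group means, ordered by the scramble mean. KIF21A, KIF3A and KIF16B lie lower and KIF13A and KIF3C higher in the labelled knockdown libraries, while KIF21B overlaps.

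KIF21A, which halts microtubule growth at the cell cortex and is known from a congenital eye movement disorder, had the largest fall among transport kinesins as fitted, but with the GC and length correction KIF17 did (-1.27 for KIF21A against -1.58). It had 67.2, 59.5 and 64.7 CPM in the scramble libraries and 22.5, 21.997 and 22.2 CPM in those labelled knockdown, and fell by 65.2% with no overlap (log2 fold change -1.52 ± 0.06 (SE), adjusted p = 2.98e-25). KIF21B, its relative in neurons and lymphocytes, was read at a low level with 78, 37 and 52 reads in scramble and 49, 31 and 38 in the labelled knockdown libraries. The groups overlapped for KIF21B, and its call (log2 fold change -0.67 ± 0.22 (SE), adjusted p = 0.00621) was lost without scramble replicate 1 (log2 fold change -0.40, adjusted p = 0.120) or without labelled knockdown replicate 2 (-0.50, 0.0529). KIF17, a motor of dendrites and cilia, had 45, 32 and 32 reads in scramble and 22, 23 and 19 in the labelled knockdown libraries (log2 fold change -0.94 ± 0.25 (SE), adjusted p = 0.000819).

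Among the 29 kinesins with at least 10 reads in every library, the largest change was that of KIF7, of the ciliary and signalling class. The others of that class among the 29, KIF27, KIF9 and KIF24, changed less as fitted than KIF21A of the transport class. KIF7, which sits at the tip of the primary cilium and tunes GLI factors in Hedgehog signalling, had 32.5, 30.5 and 34.5 CPM in the scramble libraries and 6.69, 5.83 and 6.43 CPM in those labelled knockdown. The highest labelled knockdown library lay far below the lowest scramble library, and KIF7 fell by 80.6% (log2 fold change -2.36 ± 0.08 (SE), adjusted p = 2.5e-26). A change of at least this size was seen in 9.14% of all genes tested. KIF27, its closest relative, linked to motile cilia, was lower too, at 21.4, 16.3 and 17.6 CPM against 10.9, 10.7 and 11.5 (log2 fold change -0.75 ± 0.09 (SE), adjusted p = 6.64e-10). Of its 50-base stretches 29.6% also occur in transcripts of other genes, among them AL353743.4, so its reads are uncertain.

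KIF9, a motor of the flagellar and motile ciliary core, had 9.81, 7.59 and 7.38 CPM against 3.45, 4.48 and 3.76 (log2 fold change -1.09 ± 0.13 (SE), adjusted p = 1.37e-09). Its exons overlap those of the antisense gene KIF9-AS1 over 16.9% of the transcript, and the library kit marks strand, per the labels, but whether reads were counted by strand is not given in the sources used here. KIF24, which removes tubulin at centrioles and holds back cilium growth, differed little, with 25.3, 26.003 and 25.6 CPM against 24.3, 21.9 and 22.9 (log2 fold change -0.15 ± 0.06 (SE), adjusted p = 0.0258). Its call was lost with library totals as the scale (adjusted p = 0.134), without labelled knockdown replicate 2 (0.143) or 3 (0.0682), with the GC and length correction (0.0523) and in DESeq2 (0.0683).

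The remaining members were read almost entirely in 1 group or hardly at all. KIF6, a motile cilium motor, had 66, 46 and 40 reads in scramble and 0, 2 and 0 in the labelled knockdown libraries, a ratio of 85.8 with an exact 95% counting interval of 23.4 to 715. KIF26B, a member thought to lack ATPase activity and linked to cell adhesion and kidney development, had 2, 0 and 0 reads in scramble and 21, 30 and 30 in the labelled knockdown libraries, a ratio of 35.9 with an exact 95% counting interval of 9.61 to 301. KIF25 had 1, 0 and 2 reads in scramble and 10, 8 and 7 in the labelled knockdown libraries, a ratio of 7.38 with an exact 95% counting interval of 2.25 to 38.2, which did not reach the filter for testing. KIF12 had 2 reads, both in labelled knockdown libraries. KIF19, KIF26A, KIF1A and KIF2B had 0 reads throughout.

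Markers of other cells gave the following background for the kinesins known from neurons. Of 12 neuronal markers, STMN2, GAP43, NEFL, NEFM, DCX and ELAVL4 had 0 reads in every library, and the summed level of the list, carried mainly by TUBB3, ran from 85.7 to 89.9 CPM in scramble and 77.95 to 81.6 CPM in the other group. RBFOX3, a neuronal splicing factor, had 1.28 ± 0.179 against 0 ± 0 CPM (SD, n = 3) and MAP2 3.86 ± 0.178 against 1.52 ± 0.325 CPM (SD, n = 3), both lower. SYT1 was higher (log2 fold change 0.48 ± 0.14) and TUBB3 lower (-0.13 ± 0.04). SNAP25 had 0, 1 and 0 reads in scramble and 7, 6 and 11 in the labelled knockdown libraries. SYN1 had 5, 1 and 1 reads against 6, 1 and 4, and neither gene reached the filter for testing. Summed fibroblast markers ran from 7.56 to 9.35 CPM in scramble and 28.5 to 31.6 CPM in the other group, with DCN at 0, COL1A2 at 0.0617 ± 0.0736 against 7.45 ± 0.742 CPM (SD, n = 3), PDGFRB at 1.54 ± 0.258 against 11.03 ± 0.597 CPM (SD, n = 3), COL1A1 at 3.99 ± 0.542 against 9.24 ± 0.8095 CPM (SD, n = 3), LUM at 0 ± 0 against 0.622 ± 0.0575 CPM (SD, n = 3) and ACTA2, which was lower, at 2.704 ± 0.665 against 2.01 ± 0.248 CPM (SD, n = 3). PDGFRA and FAP had 0 to 3 reads per library. Of the leukocyte markers, PTPRC had 2 to 4 reads per library, LYZ stood at 0.199 ± 0.216 against 0.807 ± 0.00481 CPM (SD, n = 3) and CD14 at 0.234 ± 0.127 against 6.195 ± 0.433 CPM (SD, n = 3), and CD68, also made outside leukocytes, at 286 ± 3.75 against 156 ± 6.09 CPM (SD, n = 3). The part of such cells in the kinesin values was not tested.

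Set side by side, mitotic kinesins took up a smaller share of reads relative to transport kinesins in the labelled knockdown libraries. The ratio of their summed CPM was 1.33, 1.36 and 1.37 in scramble and 1.197, 1.202 and 1.19 in the labelled knockdown libraries. The groups did not overlap, and the ratio of the group means was 0.884. This contrast rests on the naming rule, which leaves out CENPE (155 against 147 CPM) and KIFC1 (173 against 242 CPM). The ratio with these genes included was not computed. Summed mitotic CPM was 1921 ± 4.71 in scramble and 1511 ± 11.8 in the labelled knockdown libraries (SD, n = 3). Summed transport CPM was 1421 ± 21.8 in scramble and 1264 ± 13.1 in the labelled knockdown libraries, and without KIF5B it was 799.6 ± 7.03 in scramble and 815 ± 5.04 in the labelled knockdown libraries. Whether the classes differed in their response was not tested, since the members were placed with earlier results known.

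**Figure D5:**
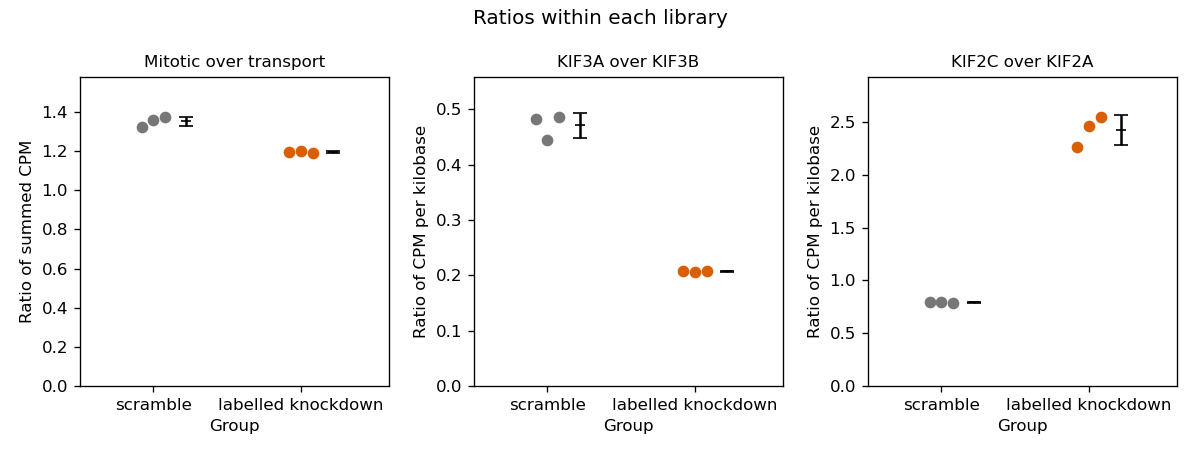
Ratios within each library by group: summed CPM of mitotic over transport kinesins, and CPM per kilobase of KIF3A over KIF3B and of KIF2C over KIF2A; points are libraries, and bars give the mean ± SD (n = 3). The first ratio goes from a mean of 1.35 to 1.196, the second from 0.471 to 0.207, and the third from 0.795 to 2.42.

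Ordered by level per kilobase of transcript, KIF5B led in both groups. In scramble it had 106 ± 2.52 CPM per kilobase (SD, n = 3), followed by KIF20A with 77.3 ± 1.96, KIF23 with 71.9 ± 2.41 and KIF22 with 61.4 ± 2.03. KIF11 (52.7 ± 0.845) and KIF2A (50.9 ± 2.17) followed, and these neighbours did not differ beyond their spread. In the labelled knockdown libraries KIF5B had 76.3 ± 1.54 and KIF2C, eighth in scramble with 40.4 ± 1.88, came level with it at 74.8 ± 1.09, within the spread of both. KIF5B made up 48.8% ± 0.379 of the summed transport level per kilobase in scramble and 40.2% ± 0.361 in the other group.

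Kinesin genes with other symbols were higher or did not pass. Of 5, 4 were higher and CENPE, the kinetochore kinesin that carries chromosomes to the spindle equator, did not pass (-0.07 ± 0.06, adjusted p = 0.283). Among all genes 43.4% were higher and 85.9% passed either way. KIFC1, a minus-end motor that clusters extra centrosomes, was higher (173 ± 5.12 against 242 ± 6.695 CPM (SD, n = 3); log2 fold change 0.48 ± 0.03). KIFC2 (1.28 ± 0.08), KIFC3 (0.28 ± 0.04) and STARD9 (0.63 ± 0.07) were higher too. The 3 KIFC genes, whose motors walk towards the minus end, lay on the other side of 0 from most mitotic members.

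Partners of mitotic kinesins moved both ways: 10 of 18 tested were lower and 5 higher, with a median log2 fold change of -0.18, against 42.5% lower and 43.4% higher among all genes. HMMR, which binds KIF15 and TPX2 at the spindle, was lower, at 49.8 ± 2.08 against 16.9 ± 0.505 CPM (SD, n = 3). INCENP, the scaffold of the chromosomal passenger complex, was lower (-0.81 ± 0.04), while CDCA8 (0.50 ± 0.04) and BIRC5 (0.34 ± 0.04) of the same complex were higher and AURKB did not pass (0.08 ± 0.04, adjusted p = 0.0661). SPAG5, a spindle protein also known as astrin, was higher (0.69 ± 0.03).

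Transcription factors of division genes were lower in 11 of 21 cases and higher in 7 (median -0.27), against 43.4% higher and 42.5% lower among all genes. E2F4, which with E2F5 is an E2F of the DREAM complex, was lower, at 310.2 ± 9.85 against 89.6 ± 2.11 CPM (SD, n = 3) (log2 fold change -1.79 ± 0.04). The pocket protein gene RB1 (-1.01 ± 0.04) and TFDP1 (-0.67 ± 0.03), the binding partner of E2F proteins, were lower, and E2F5 was higher (1.58 ± 0.09).

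Cargo adaptors and light chains of kinesins split into 8 higher and 7 lower of 20 tested, with a median of 0.08, against 43.4% higher and 42.5% lower among all genes, so the split does not set them apart. PLEKHM2, which couples lysosomes to KIF5B, was higher (76.4 ± 2.83 against 113 ± 2.04 CPM (SD, n = 3); log2 fold change 0.56 ± 0.04). Dynein and dynactin, the opposing minus-end transport machinery, split into 7 higher and 11 lower of 24 tested, with a median of -0.08. Beside those background shares, the lower share was near and the higher share smaller, and 6 did not pass. The dynein light intermediate chain gene DYNC1LI2 (-0.92 ± 0.04) and the adaptor gene BICD1 (-2.15 ± 0.08) were lower, and the dynactin genes ACTR1A (0.61 ± 0.03) and ACTR1B (0.81 ± 0.04) higher.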

How the data were processed

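Per the labels, polyadenylated RNA was sequenced with a stranded kit and single reads of 50 bases. The authors deposited raw counts of reads for each gene symbol, without normalization, in a file for every library. TopHat2 2.0.8b, HTSeq, bcl2fastq and hg19 are named in the submitters' processing notes. Neither the strand setting of HTSeq nor the release of the annotation is given in the sources used here. The summary lines of reads in no gene were left out. The line for multiply aligned reads held 34.0% to 34.2% of all counts in a scramble file and 29.3% to 29.6% in a labelled knockdown file. Whether such a read was counted once or once per alignment is not given in the sources used here. The line for reads in no gene held 14.4% to 15.0% and 11.0% to 11.1% of all counts, in the same order. Genes with reads numbered 15333 to 15375 in scramble and 15792 to 15895 in the labelled knockdown libraries. The part of these differences in the fold changes was not tested.

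Samples were grouped by title. The 13606 genes that filterByExpr kept were fitted in edgeR 4.0.16 (R 4.3.3) after TMM scaling, with a robust two-sided quasi-likelihood F test on group alone. CPM carry the TMM factors. The fit was tested on simulated data in which only a small part of the genes differed. That test does not cover data in which 85.9% of genes tested were called. Between libraries of the same group, counts varied beyond sampling noise (chi-square 1.69 to 3.55 per degree of freedom). Members, lists and classes were chosen with earlier results of these data known. Every kinesin is named, with up to 4 genes of each other list by adjusted p and all genes reported high, low or lost in MDA-MB-231. Chosen after their values were seen were CIT, PRC1, KLC1, KLC2, KIFAP3, CENPE, CDCA8, BIRC5, AURKB and SPAG5. So were the markers ACTA2, PDGFRA, FAP, STMN2, GAP43, NEFL, NEFM, DCX, ELAVL4, SNAP25, SYN1, DCN and PTPRC. Lengths, GC content and overlaps came from a single GENCODE transcript per gene (GRCh38), by APPRIS rank and then length. The results were recomputed with other scalings (DESeq2 size factors, upper quartile, library totals), other filters (none, or 1 CPM in 3 libraries), other tools (DESeq2 1.42.0, limma-voom 3.58.1), a replicate block, single libraries left out, a stricter threshold (0.01), a test for changes beyond 1.5-fold, and other class membership. A loess correction for transcript length and GC content, over 11967 genes (88.0% of those tested), was added after seeing the data.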

Additional observations from a re-analysis of the deposited data

How the results depend on the processing

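Of the 31 tested kinesins, 14 kept direction and call under each alternative run in which they were tested. Among these, KIF26B was tested in 16 of 17 runs, as it missed the filter of 1 CPM in 3 libraries. Against a 1.5-fold change, calls fell to 3307 higher and 2944 lower of 13606 genes, and to 4 and 10 of 31 kinesins. For mitotic kinesins they were 1 and 3 of 13, so the lower share was near that of all genes. For transport kinesins they were 2 and 3 of 12. The mitotic median was -0.41 with library totals, -0.43 without KIF2A and -0.29 with the GC and length correction, and -0.49 to -0.44 with a library left out. The transport median turned to 0.027 without KIF21A and KIF21B and was -0.18 with the GC and length correction, under which the fold of the mitotic to transport ratio was 0.863 in place of 0.884. KIF1C turned to 0.021 with library totals, and SCUBE3 ran from -0.050 to 0.080 with a library left out, lowest without scramble replicate 3. Library totals shifted the median of all genes by 0.05 and the GC and length correction by -0.09 on the log2 scale.

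Correlations of deviations from group means were 0.0779, 0.0623 and -0.00188 for libraries numbered 1, 2 and 3 in both groups. Those between libraries with different numbers ran from -0.0908 to 0.0304. All were weak, and they do not settle whether the numbers pair the libraries. With the replicate block, 11706 genes were called in place of 11681, with 21 kinesins lower and 8 higher. Scramble replicate 3 did not correlate best with its own number. Depth limits KIF21B, KIF17, KIF6, KIF26B, KIF25 and KIF5C, each under 100 reads in every library.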
